A study of Mus musculus with 13 samples.

Results

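The cells described here are CD8+ T cells responding to infection, taken from mouse spleen 7 days after infection and not divided into the memory precursor and short-lived effector subsets. They were chosen by their column heading alone, without use of any measured value, and number 134 of the 1449 cells in the series. A memory precursor (Tmp) and a short-lived effector (Tsle) population of the same day, with 62 and 89 cells, are set beside them. Each of the 13 populations of the series is 1 sample, in which 94 genes were measured by quantitative PCR in single cells.

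All 3 day 7 populations were CD45.1+ CD8+ T cells carrying the transgenic OT-1 receptor, which recognises ovalbumin. In each case 5000 cells were given to CD45.2 recipients, congenic wild-type C57/B6J mice, which were infected by vein the next day with 5000 colony-forming units of Listeria monocytogenes expressing ovalbumin. How many mice were used, their age, the gates for Tmp and Tsle, and which cells shared an array are not stated in the labels. The strain label reads C57BL/6J. The design therefore models a response by cells of a single receptor specificity, started from transferred cells. Other populations of the series, also compared below, differ in day and in the number of cells transferred. That number was 2000000 for the first-division sample of day 2, 20000 for day 3 and 5000 for the day 5 and day 45 samples. The dose was 5000 colony-forming units in each of these. For naive cells and the distal and proximal samples of day 2, neither number is listed.

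An acute infection drives naive CD8+ T cells to divide and to become effector cells, most of which die, while a minority persist as memory cells. Tcf7 encodes TCF-1, a transcription factor of naive, memory and memory-precursor cells, and Il7r encodes the receptor for interleukin-7, a survival factor of those cells. Klrg1 encodes an inhibitory receptor found on terminal effectors, and Zeb2 a transcriptional repressor that promotes their differentiation. The question asked here is which transcripts accompanied Tcf7 in single cells before any subset was separated, and which other transcripts were found together or apart.

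A transcript counts as found in a cell when its deposited value is above 0. Higher values mean more RNA, and 1 unit is 1 PCR cycle. In these cells they reached 31.98, and 82.3% were 0. Shares of cells are followed in brackets by exact (Clopper-Pearson) 95% binomial intervals, which cover counting error only. Cells of 1 sample are not replicates and each population is 1 sample, so no test was possible, no p-value is given, and differences are given by their size. A cell without the transcript may have held it below the limit of detection.

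The transcripts of CD8+ T cells were present, and those of activation were uneven. R18s, Actb and Gapdh, the reference transcripts, were found in all 134. Ptprc, encoding the leukocyte antigen CD45, was found in 97.0% (92.5 to 99.2%) and Cd8a, encoding the CD8 alpha chain, in 55.2% (46.4 to 63.8%), so that 60 cells sorted as CD8+ had no Cd8a transcript above 0. Of the marker transcripts, the chemokine gene Ccl5 was found in 96.3% (91.5 to 98.8%), Zeb2 in 43.3% (34.8 to 52.1%), Cxcr3 in 37.3% (29.1 to 46.1%), Tcf7 in 30.6% (22.9 to 39.1%) and Klrg1 in 24.6% (17.6 to 32.8%). Neither Cd4 nor Foxp3, which mark CD4+ and regulatory T cells, was seen: each was found in 0 of 134 cells, where 3 cells would be 2.24% and the exact interval reaches 2.72%. Gata3, a factor of other helper T cells, was found in 11 (8.21%, 4.17 to 14.2%). Tbx21, the gene of T-bet, was likewise found in no cell. Other transcripts of activation and effector function were seldom seen: Cd44, an adhesion receptor of activated cells, in 8 cells (5.97%), Gzmb, encoding granzyme B, in 10 (7.46%), and the early activation gene Cd69 and Ifng, encoding interferon gamma, in 5 each (3.73%).

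Across the panel, 15 genes were found in no cell, 44 in at least 1 cell but under 10% of them, 30 in 10 to 90% and 5 in over 90%. Klf2, which maintains quiescence and recirculation of lymphocytes, came next at 89.6% (83.1 to 94.2%), followed by the galectin gene Lgals1 at 74.6% (66.4 to 81.7%). The surface glycoprotein gene Thy1 was found in 50.0%, the costimulatory receptor Cd28 in 44.0% and the interleukin-2 receptor chain Il2rb in 43.3%. Zfp281, a zinc finger gene, was found in 37.3%, the interferon gamma receptor Ifngr1 in 36.6%, the transcription factor Foxo1 in 32.8%, the inhibitory receptor gene Klrc1 in 32.1% and the proteasome subunit Psmb7 in 29.9%. The signal transducer Stat4 was found in 28.4%, Eomes, a T-box factor of effector and memory cells, in 22.4% (15.6 to 30.4%) and Il7r in 20.9% (14.4 to 28.8%).

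The columns of this sample were divided into a first stretch of 76 cells and a second of 58. The cut was placed where values of found transcripts differed most over all assays. Some difference in height between the stretches therefore follows from that choice. In cells with the transcript, Lgals1 had a median value of 4.84 in the first stretch and 10.5 in the second, Tcf7 18.1 and 15.7, and Ccl5 18.1 and 15.9. An array holds 96 cells, per the labels, but whether the stretches are separate arrays is not stated. In share of cells, 2 of 94 genes (2.13%) differed by at least 20 percentage points between the stretches, among them Cd28, in 27.6% of the first and 65.5% of the second. Results are therefore also given within each stretch. All 5 cells with an R18s value under 26 lay in the second stretch, and 0 of them had Tcf7.

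A few cells stood apart by their values. A Tcf7-positive cell had 34 assays above 0, against 26 in the next, and 6 cells held a value above 21 in an assay other than R18s and Actb, higher than nearly all others. These 7 cells included 4 with Tcf7, and the leading results were also computed without them. Cells were sorted singly, no doublet caller was applied, and no 2 columns of the series were identical.

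Tcf7 was found in 41 cells and not in 93. Among Tcf7-positive cells the lowest value was 11.98, the median 16.9 and the highest 20.5, and 2 of the 41 lay under 13, so few Tcf7-positive cells had low values. The other 93 cells all had a value of 0, so missed detection among them cannot be judged from these values. The sets also differed in what else they held. Tcf7-positive cells had a median of 18 other assays above 0 (9 to 33) and Tcf7-negative cells 16 (8 to 24). The median R18s value was 29.1 in Tcf7-positive and 28.8 in Tcf7-negative cells, that of Actb 20.4 and 20.1, and that of Gapdh 15.1 and 14.2. The part of these values in the shares below was not tested, but the leading shares are also given within cells of few assays (up to 16 others, 15 with Tcf7 and 53 without) and of many (26 and 40).

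Of the 93 other genes, 4 (4.3%) were found at least 20 percentage points more often in Tcf7-positive cells: Il7r, Eomes, Cxcr3 and Stat4. Another 2 (2.15%) were found at least 20 points less often, Klrg1 and Zeb2. The median difference over all 93 genes was 0.87 points, with 49 higher, 26 lower and 18 equal. Among the 29 genes found in 10 to 90% of cells the median was 6.32 points, with 22 higher and 7 lower, so most transcripts of intermediate frequency had a larger share in Tcf7-positive cells, which also had more assays above 0. Il7r, Eomes and Klrg1 were the genes (3 of 93) whose intervals in Tcf7-positive and Tcf7-negative cells did not overlap, which is a description and not a test. For Eomes the gap was narrow, with bounds of 24.2 and 23.97%.

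**Figure D1:**
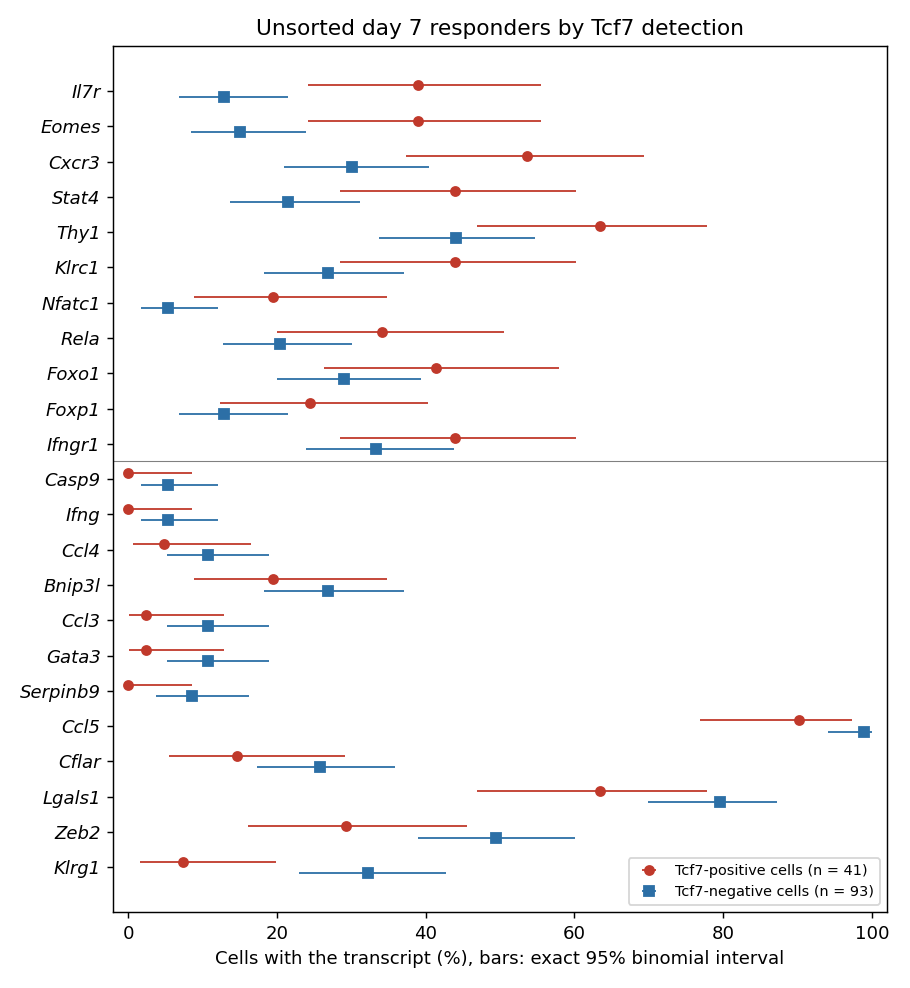
Share of cells (%, horizontal axis) with each transcript in Tcf7-positive cells (circles, upper of each pair) and Tcf7-negative cells (squares, lower), with exact 95% binomial intervals as bars. Of the 12 genes with the largest positive difference, 11 stand above the grey line, and the 12 with the largest negative one stand below it. The bars of Il7r, Eomes and Klrg1 are apart, and all others overlap.

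Il7r had the largest difference. It was found in 16 of 41 Tcf7-positive cells (39.0%, 24.2 to 55.5%) and 12 of 93 Tcf7-negative cells (12.9%, 6.85 to 21.5%), a difference of 26.1 points. Its values in Tcf7-positive cells had a lowest of 14.1, a median of 17.3 and a highest of 25.5, and in Tcf7-negative cells 9.43, 15.9 and 18.2. The ranges overlapped, and the highest value, 25.5, was in a cell counted above for its unusual values. The difference in share was 21.8 points in the first stretch of columns and 32.4 in the second, 24.8 among cells of few assays and 18.7 among cells of many. Without the 7 cells it was 21.3 points.

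Eomes was found in 16 Tcf7-positive cells (39.0%, 24.2 to 55.5%) and 14 Tcf7-negative cells (15.1%, 8.48 to 23.97%), a difference of 23.97 points. Its values ran from 14.0 to 17.1 in Tcf7-positive cells and from 12.9 to 16.6 in Tcf7-negative cells, with medians of 15.4 and 15.1, so the sets differed in share while their values overlapped. The difference was 20.2 and 29.0 points in the stretches, 21.01 among cells of few assays and 18.7 among cells of many.

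Cxcr3, the receptor for interferon-induced chemokines, was found in 22 Tcf7-positive cells (53.7%, 37.4 to 69.3%) and 28 Tcf7-negative cells (30.1%, 21.03 to 40.5%), a difference of 23.6 points. Its values had a lowest of 12.4, a median of 16.3 and a highest of 19.6 in Tcf7-positive cells, and 6.54, 15.6 and 17.8 in Tcf7-negative cells. The difference was near that size in both stretches (23.7 and 22.7 points). Among cells of few assays it was 4.03 points, against 29.2 points among cells of many.

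Stat4, which carries the interleukin-12 signal, was found in 18 Tcf7-positive cells (43.9%, 28.5 to 60.3%) and 20 Tcf7-negative cells (21.5%, 13.7 to 31.2%), a difference of 22.4 points. Its values overlapped almost wholly, with a median of 15.4 in Tcf7-positive and 15.7 in Tcf7-negative cells. The difference was 10.3 points in the first stretch and 39.3 in the second, and 6.79 and 25.2 among cells of few and many assays. Of the 4 genes, Cxcr3 and Stat4 were those whose difference was under 10 points among cells of few assays.

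Further transcripts of the same direction lay under 20 points. Thy1 was found in 63.4% of Tcf7-positive and 44.1% of Tcf7-negative cells (19.3 points), but among cells of few assays the difference was 0.38 points. Klrc1, which encodes the inhibitory receptor NKG2A, was found in 43.9 and 26.9% (17.0 points). Nfatc1, a calcium-regulated factor of T cell receptor signalling, was found in 8 of 41 and 5 of 93 cells (19.5 and 5.38%), a difference of 14.1 points that was 15.1 and 12.8 in the stretches. Rela, a subunit of NF-kappaB, differed by 13.7 points, but by 30.4 in the first stretch and -9.18 in the second. Foxo1 (12.4 points), Foxp1 (11.5) and Ifngr1 (10.6) followed. Mapk8, the gene of the kinase JNK1, was found in 4 of 41 and 1 of 93 cells, and Irf8, a factor of effector differentiation, in 3 of 41 and 0 of 93.

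Klrg1 had the largest negative difference. It was found in 3 of 41 Tcf7-positive cells (7.32%, 1.54 to 19.9%) and 30 of 93 Tcf7-negative cells (32.3%, 22.9 to 42.7%), a difference of -24.9 points, and was lower in both stretches (-27.9 and -22.0 points) and at few and many assays (-17.9 and -34.8). Of the 3 cells with both transcripts, 2 were among the 7 of unusual values: the cell with 34 assays, and a cell with 26 assays, Klrg1 at 22.7, Il7r at 25.5, Bnip3l at 25.3 and Tox at 28.1, above its Actb at 19.4. The remaining cell had 17 assays, Klrg1 at 15.8 and Il7r at 18.2. Without the 7 cells, Klrg1 was found in 1 of 37 Tcf7-positive (2.70%) and 29 of 90 Tcf7-negative cells (32.2%), a difference of -29.5 points.

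Zeb2 was found in 12 Tcf7-positive cells (29.3%, 16.1 to 45.5%) and 46 Tcf7-negative cells (49.5%, 38.9 to 60.0%), a difference of -20.2 points, which moved to -23.5 without the 7 cells. Its values in the cells that had it overlapped throughout, with medians of 15.0 and 15.4. The difference was -14.7 and -27.7 points in the stretches and -30.9 and -12.9 at few and many assays. Zeb2 and Tcf7 were found together in 12 cells, of 58 with Zeb2 and 41 with Tcf7.

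**Figure D2:**
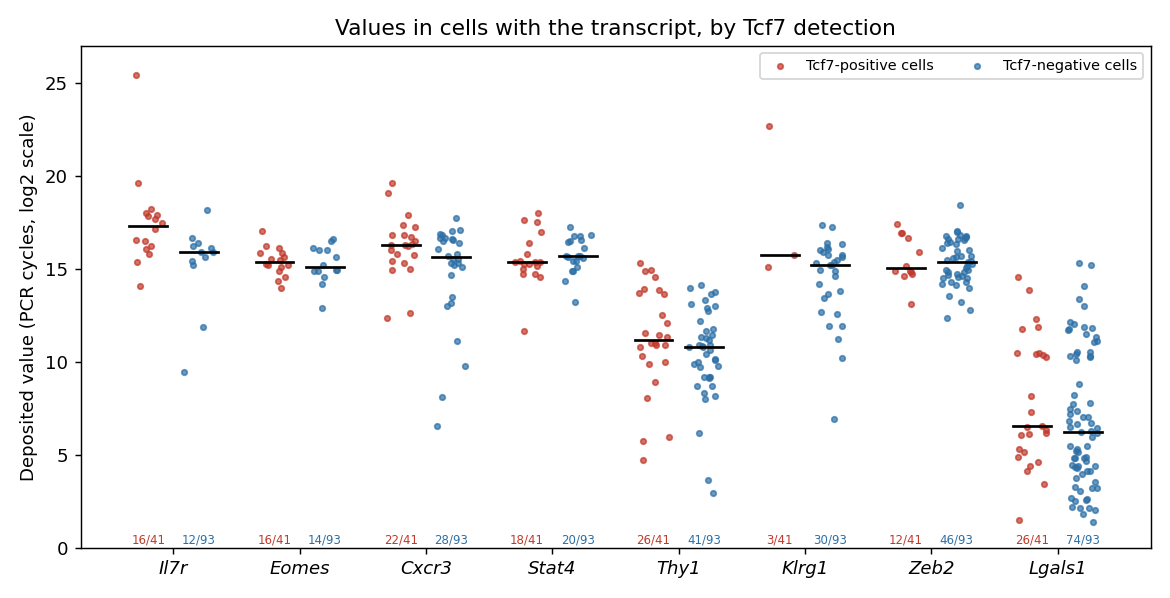
Deposited values (PCR cycles, vertical axis) of 8 genes in the cells where each was found, for Tcf7-positive cells (left of each pair) and Tcf7-negative cells (right). Points are cells, black lines medians, and the fractions give cells with the transcript out of all cells of the set. The sets differ in how many cells have a transcript, while the values themselves overlap, and Lgals1 values lie far below the others.

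Several cytokine, chemokine and cytotoxic transcripts were rare in both sets. Ifng was found in 0 of 41 Tcf7-positive cells (3 cells would be 7.32%, and the exact interval reaches 8.60%) and 5 of 93 Tcf7-negative cells (5.38%, 1.77 to 12.1%). The serine protease inhibitor gene Serpinb9 was found in 0 of 41 and 8 of 93, the chemokine genes Ccl3 in 1 and 10 and Ccl4 in 2 and 10, and Gzmb in 2 and 8. All values of Ifng and Serpinb9 were at or below 12, so with a limit of 12 neither was found in any cell. Among cells of few assays Gzmb and Ccl4 differed by 2.89 and 1.01 points, higher with Tcf7. The caspase gene Casp9 was found in 0 and 5 cells. Each of these pairs of intervals overlapped, and none of these differences was tested. Lgals1 was found in 63.4% of Tcf7-positive (46.9 to 77.9%) and 79.6% of Tcf7-negative cells (69.9 to 87.2%), a difference of -16.2 points that was -30.4 in the first stretch and 3.30 in the second. Cflar, which encodes the caspase-8 inhibitor c-FLIP, was found in 14.6 and 25.8% (-11.2 points), and Bnip3l, a mitochondrial death and mitophagy gene, in 19.5 and 26.9% (-7.37 points, -15.9 without the 7 cells).

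Counted by gene lists, the differences ran as follows, beside a median of 0.87 points over all 93 genes, of which 4 reached 20 points higher and 2 lower, and 49 were higher and 26 lower in any amount. Among the genes found in 10 to 90% of cells, 22 of 29 were higher, so a list of mostly higher members is near that background. Of 9 naive and memory factors other than Tcf7, 1 reached 20 points (Eomes), 7 were higher in any amount and 1 was lower, with a median of 3.80 points. All 5 cytokine receptors were higher in any amount and 1 reached 20 points (Il7r), with a median of 7.92 points. All 5 homing and chemokine receptors were higher and 1 reached 20 points (Cxcr3), with a median of 8.18. Of 7 terminal effector and cytotoxic genes 1 was lower by 20 points (Klrg1), 5 were lower in any amount and 1 higher, Klrc1, with a median of -5.38. The 5 chemokines had 4 lower and none higher (median -5.87), and the 3 apoptosis genes were all lower (median -5.38), none by 20 points. The 8 effector factors were split, with Stat4 higher and Zeb2 lower by 20 points. These lists were drawn up with earlier results of these data known, so their direction is a description.

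**Figure D3:**
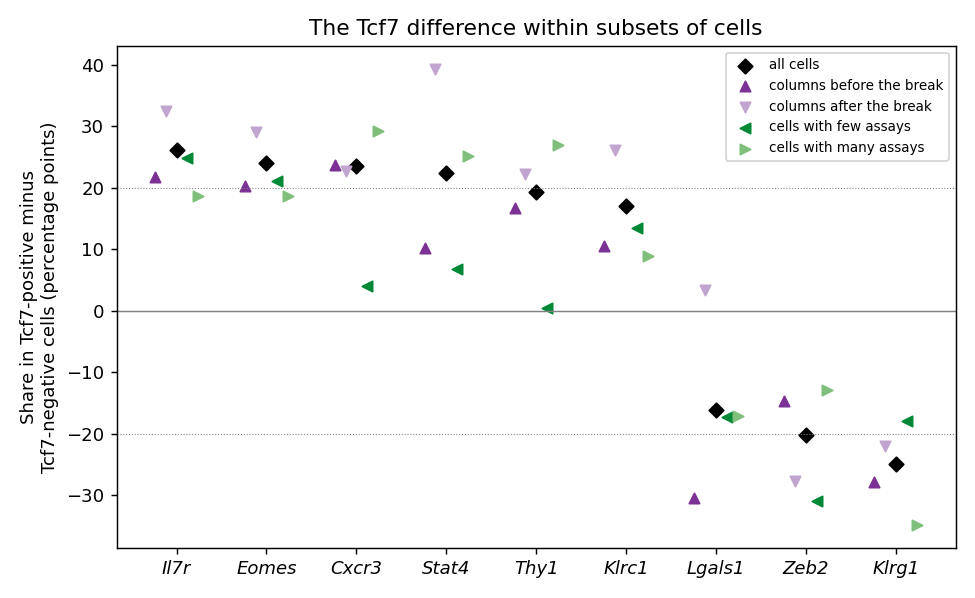
Share with each transcript in Tcf7-positive minus Tcf7-negative cells (percentage points, vertical axis) for 9 genes, over all cells (diamonds), within the first and second stretch of columns (up and down triangles) and among cells of few and many assays (left and right triangles). Dotted lines mark 20 points. Il7r, Eomes, Klrg1 and Zeb2 keep their sign with sizes of at least 12.9 points, while Cxcr3, Stat4 and Thy1 shrink among cells of few assays and Lgals1 changes sign between stretches.

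In cells that held a transcript, its amount differed little between the sets. Of 24 genes found in at least 10 cells of each set, 4 had medians at least 1 cycle apart. Of these, Cd28 had a median value of 13.5 in Tcf7-positive and 11.5 in Tcf7-negative cells, Foxo1 16.2 and 14.7, and Il7r 17.3 and 15.9. The Cd28 difference was -0.012 cycles in the first stretch, and the Cd28 and Il7r differences were -0.60 and -0.30 cycles when each cell was centred on Actb and Gapdh, so their direction is not settled.

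Il7r and Tcf7 were found together in some cells and apart in others. Both were found in 16 cells, Tcf7 alone in 25, Il7r alone in 12 and neither in 81. A transcript not found in a cell may have lain below the limit of detection. Eomes was found in 4 of the 16 cells with both (25%, 7.27 to 52.4%), in 12 of the 25 with Tcf7 alone (48.0%, 27.8 to 68.7%), in 2 of the 12 with Il7r alone and in 12 of the 81 with neither (14.8%, 7.90 to 24.4%). Nfatc1 was found in 1, 7, 2 and 3 cells of these classes. Klrg1 was found in 3 of 16 cells with both, 0 of 25 with Tcf7 alone (3 cells would be 12%, and the exact interval reaches 13.7%), 1 of 12 with Il7r alone and 29 of 81 with neither (35.8%, 25.4 to 47.2%). Cxcr3 was found in 9 of 16, 13 of 25, 5 of 12 and 23 of 81. The classes are small and their intervals overlap for Eomes between cells with both transcripts and cells with Tcf7 alone.

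By the effector and memory transcripts, 73 cells (54.5%, 45.7 to 63.1%) had Klrg1 or Zeb2 among them 14 (10.4% of all cells, 5.83 to 16.9%) that also had Tcf7. Another 27 (20.1%, 13.7 to 27.9%) had Tcf7 with neither, and 34 (25.4%, 18.3 to 33.6%) had none of the 3. With Il7r and Cxcr3 added to those genes, 13 cells (9.70%, 5.27 to 16.02%) had none of the 5.

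The few cells without Ccl5 were mostly Tcf7-positive. Of 5 such cells 4 had Tcf7, so that Ccl5 was found in 37 of 41 Tcf7-positive (90.2%, 76.9 to 97.3%) and 92 of 93 Tcf7-negative cells (98.9%, 94.2 to 100%), with overlapping intervals. The 4 cells had Tcf7 at 20.5, 20.2, 18.4 and 14.8, the first of which was the highest Tcf7 value of the sample, and R18s between 29.1 and 31.98. None had Zeb2 or Klrg1, which were found in 12 and 3 of the 37 Tcf7-positive cells with Ccl5. All 4 had Klf2, against 32 of the 37, 3 had Zfp281, against 13, 3 had Lgals1, against 23, and 2 had Mapk8, against 2. With 4 cells, no difference in these counts was tested. The Tcf7-negative cell without Ccl5 had R18s at 22.7 and Actb at 6.81, low for both reference transcripts.

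Co-detection was then described over all pairs of the 30 genes found in 10 to 90% of cells. The measure is phi, the correlation of presence and absence over the 134 cells, which share 1 sample and differ in their number of assays above 0. Over 435 pairs the median phi was 0.02. A phi of at least 0.3 was reached by 1 pair (0.23%), Foxo3 with Tcf12, and a phi of at most -0.3 by 1 pair (0.23%), Zeb2 with Cxcr3. Of the 20 most extreme pairs 6 included Tcf7, as did 29 of all 435 pairs. In both stretches of columns 19 of the 20 had the same sign. The 20 were picked over the same cells, so this agreement of sign partly follows from that choice.

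**Figure D4:**
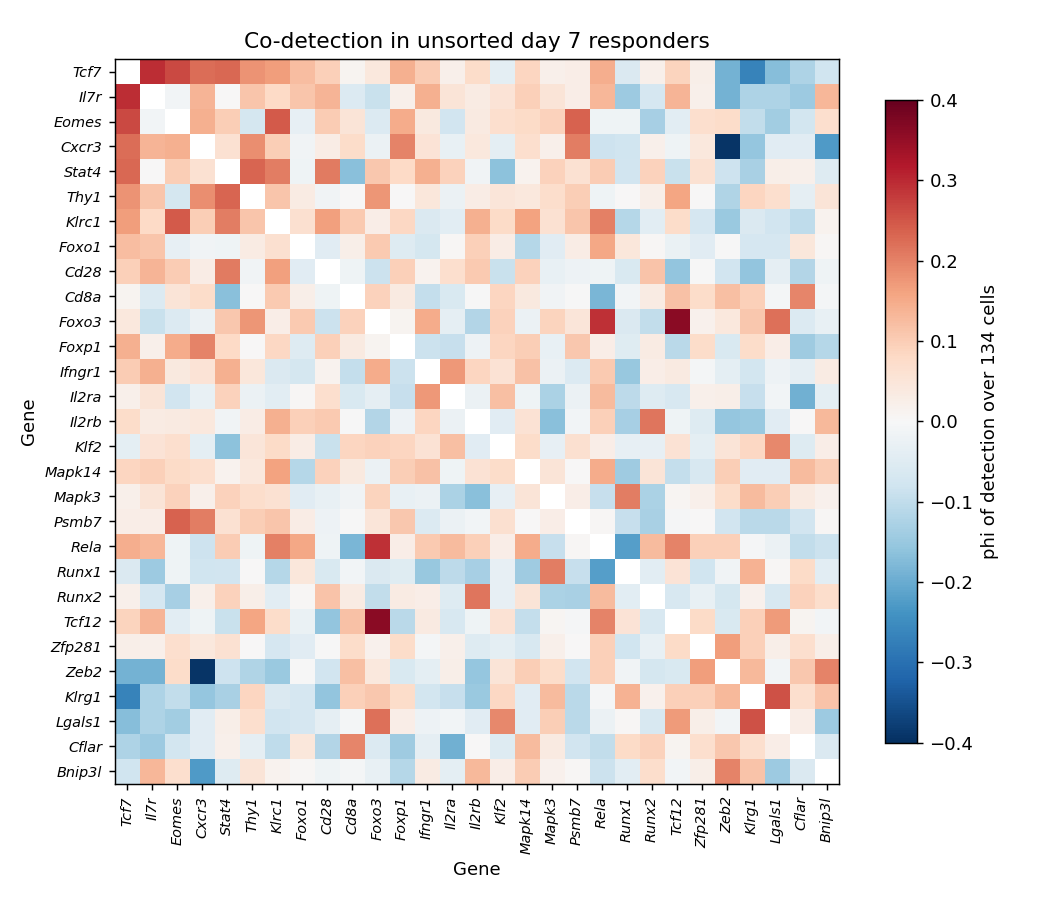
Phi of co-detection (colour, red above 0 and blue below) for pairs among 29 of the 30 genes found in 10 to 90% of the 134 cells, with Tcf7 and the genes found more often beside it first and Zeb2, Klrg1 and other genes found less often beside it last. The darkest blue square is Zeb2 with Cxcr3 (-0.39) and the darkest red is Foxo3 with Tcf12 (0.36), and most pairs lie near 0.

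Zeb2 and Cxcr3 were parted more than any other pair. Cxcr3 was found in 9 of 58 Zeb2-positive cells (15.5%, 7.35 to 27.4%) and 41 of 76 Zeb2-negative cells (53.9%, 42.1 to 65.5%), a phi of -0.39. It was -0.42 in the first stretch and -0.36 in the second, -0.26 among cells of few assays and -0.61 among cells of many, and -0.38 without the 7 cells. Within Tcf7-positive cells phi was -0.37, and within Tcf7-negative cells it was -0.37 as well.

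The sample divided into 49 cells with Zeb2 alone, 41 with Cxcr3 alone, 9 with both and 35 with neither. The median number of assays above 0 was 19 in cells with Cxcr3 alone and 16 in cells with Zeb2 alone, and its part in the following shares was not tested. Cells with Cxcr3 alone had Tcf7 in 46.3% (30.7 to 62.6%) and cells with Zeb2 alone in 18.4% (8.76 to 32.02%). Il7r was found in 31.7 and 12.2% of these classes, Thy1 in 65.9 and 42.9%, Klrc1 in 41.5 and 24.5%, and Psmb7 in 43.9 and 24.5%. In the other direction, Klrg1 was found in 14.6% of cells with Cxcr3 alone and 32.7% of cells with Zeb2 alone, and Bnip3l in 7.32% (1.54 to 19.9%) and 34.7% (21.7 to 49.6%). Of all genes compared between these classes, only Bnip3l had intervals that were apart. Bnip3l was also found in 31.6% of the first stretch of columns and 15.5% of the second, and its values reached 25.9. Eomes was found in 29.3 and 24.5%, Lgals1 in 75.6 and 77.6%, and Ccl5 in 92.7 and 100%, so these transcripts did not divide along the same line.

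ZEB proteins bind E-boxes of the form CACCTG and TCF-1 binds sites with the core ACAAAG, so the RefSeq promoter windows (assembly GRCm38.p6) of Cxcr3, parted from Zeb2 here, and Il7r, paired with Tcf7 here, are shown with matches in capitals. Both strands were searched (CACCTG or CAGGTG, and ACAAAG or CTTTGT), and the motifs do not overlap each other. Each window is 300 bases, 5′ to 3′ on the gene's strand, which is minus for both, at chrX:101734098-101734397 for Cxcr3 and chr15:9529827-9530126 for Il7r.
Cxcr3: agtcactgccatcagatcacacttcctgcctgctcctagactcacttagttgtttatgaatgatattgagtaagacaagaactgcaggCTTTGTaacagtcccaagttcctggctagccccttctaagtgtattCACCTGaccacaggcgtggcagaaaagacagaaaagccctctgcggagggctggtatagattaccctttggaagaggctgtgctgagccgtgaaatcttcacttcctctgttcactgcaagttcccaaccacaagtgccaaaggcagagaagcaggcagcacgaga
Il7r: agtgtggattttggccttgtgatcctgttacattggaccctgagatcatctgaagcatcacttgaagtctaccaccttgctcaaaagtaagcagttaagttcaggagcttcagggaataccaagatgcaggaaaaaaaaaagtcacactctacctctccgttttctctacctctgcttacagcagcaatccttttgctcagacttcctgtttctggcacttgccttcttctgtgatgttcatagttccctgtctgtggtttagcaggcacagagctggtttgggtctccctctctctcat
The Cxcr3 window holds CACCTG starting 116 bases before the transcription start and CTTTGT starting 162 bases before it. The Il7r window holds neither set of letters, which says only that they are not in this window. The search also covered other genes named here. Stat4 held both motifs in each of its 2 windows, and Eomes held neither in its 1 window. Tcf7 held the E-box in 1 of 2 windows and no TCF core, and Zeb2 the TCF core in 1 of 4 and no E-box. Among 32851 RefSeq promoter windows of the same length, 20.2% hold the E-box and 18.7% the TCF core, so a match is common and shows no binding.

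Foxo3, a forkhead factor, and Tcf12, an E protein, were found together more than any other pair. Of 23 cells with Foxo3 and 17 with Tcf12, 9 had both, so that Tcf12 was found in 39.1% of Foxo3-positive cells (19.7 to 61.5%) and 7.21% of Foxo3-negative cells (3.16 to 13.7%), a phi of 0.36 that was 0.39 and 0.36 in the stretches. Foxo3 was also paired with Rela, in 12 cells (phi 0.29), and 5 cells had all 3 transcripts. In the other 12 populations the phi of Foxo3 and Tcf12 ran from -0.13 to 0.16.

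Of the other pairs, Il7r with Tcf7 had a phi of 0.296, just under the size rule, and Eomes with Tcf7 0.26. Klrg1 and Lgals1 had a phi of 0.25, Lgals1 being found in 31 of 33 Klrg1-positive cells. Eomes was paired with Klrc1 (0.24) and with Psmb7 (0.24), and Stat4 with Thy1 (0.23). Eomes and Il7r, both paired with Tcf7, were found in the same cell in 6 cases, 4 of them with Tcf7. Below 0, Klrg1 with Tcf7 had a phi of -0.27, Bnip3l with Cxcr3 -0.23, and Runx1, a T cell transcription factor, with Rela -0.22, from 1 shared cell. Il2ra, the high-affinity chain of the interleukin-2 receptor, and Cflar were never found in the same cell, out of 15 and 30 cells (phi -0.19).

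The same Tcf7 division was made in the other populations with at least 20 cells in each set. These populations differ in day and in the number of cells transferred, as given above. The number of genes at least 20 points higher and lower in Tcf7-positive cells was 4 and 2 in unsorted day 7 cells. It was 1 and 0 in naive cells, 2 and 1 after the first division, 1 and 5 at day 3, 1 and 2 in day 5 Tmp, 1 and 0 in unsorted day 5 cells, 1 and 1 in day 7 Tmp, and 0 and 0 in central memory (Tcm) and in effector memory (Tem) cells. The sets differ in size, and counting error is wider in small ones, so these counts are not ranked. In day 7 Tmp cells Il7r was found in 2 of 26 Tcf7-positive (7.69%, 0.95 to 25.1%) and 10 of 36 Tcf7-negative cells (27.8%, 14.2 to 45.2%), a difference of -20.1 points, and Stat4 in 15.4 and 25%. The median number of other assays above 0 in these sets was 12.5 and 14.5. Eomes was found more often with Tcf7 after the first division (48.0 and 26.2%), in Tcm (34.3 and 15.4%) and in day 7 Tmp (19.2 and 11.1%), and less often in naive cells (9.82 and 13.5%) and at day 3 (19.3 and 23.5%). In day 7 Tsle 3 of 89 cells had Tcf7, too few to divide.

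**Figure D5:**
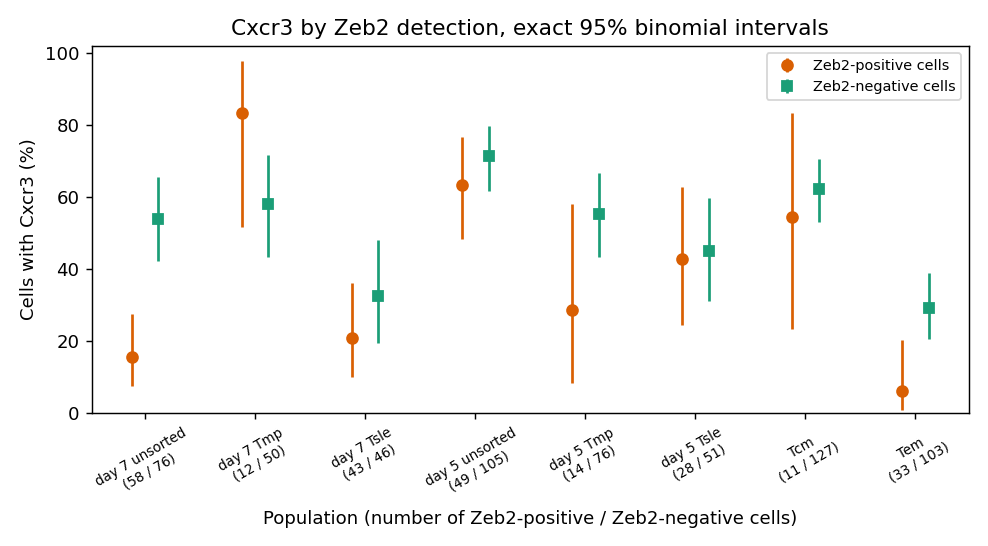
Share of cells with Cxcr3 (%, vertical axis) among Zeb2-positive (circles, left of each pair) and Zeb2-negative cells (squares, right) of 8 populations, with exact 95% binomial intervals and the number of cells of each kind below. In unsorted day 7 cells the shares are 15.5 and 53.9% and the intervals are apart, whereas in day 7 Tmp cells Cxcr3 is found more often beside Zeb2 (83.3 and 58.0%).

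The parting of Zeb2 and Cxcr3 was smaller or of the other sign in all 12 other populations. Phi was 0.21 in day 7 Tmp, where Cxcr3 was found in 10 of 12 Zeb2-positive and 29 of 50 Zeb2-negative cells, and -0.13 in day 7 Tsle, where it was found in 9 of 43 and 15 of 46. It was -0.08 in unsorted day 5 cells, -0.19 in day 5 Tmp and -0.23 in Tem, where Cxcr3 was found in 2 of 33 Zeb2-positive cells (6.06%, 0.74 to 20.2%) and 29.1% of Zeb2-negative cells (20.6 to 38.9%). The differences between populations were not tested.

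Set beside the sorted cells of the same day, the unsorted cells had more cells with Klrg1 and Zeb2 and fewer with Cxcr3 than Tmp, and more with Tcf7 and Cd28 than Tsle. Compared with Tmp, 4 of 94 genes (4.26%) were at least 20 points higher in unsorted cells: Klrg1 (24.6 against 0%), Zeb2 (43.3 against 19.4%), Psmb7 (29.9 against 6.45%) and Cd8a (55.2 against 33.9%). Only Cxcr3 was at least 20 points lower (1.06%), in 37.3% of unsorted and 62.9% of Tmp cells (49.7 to 74.8%). Compared with Tsle, 2 genes (2.13%) were higher, Tcf7 (30.6 against 3.37%) and Cd28 (44.0 against 23.6%), and 0 (0%) were lower. The Cd28 share was 27.6% in the first stretch of unsorted columns, near that of Tsle, and 65.5% in the second. Klrg1 was found in 31.6% of the first stretch and 15.5% of the second, and Psmb7 in 38.2 and 19.0%. In the second stretch both were therefore less than 20 points above Tmp. Zeb2 was found in 43.4 and 43.1% of the stretches and Cd8a in 53.9 and 56.9%. Il7r was found in 20.9% of unsorted, 19.4% of Tmp and 2.25% of Tsle cells. The gates are not given here, and whether Klrg1, found in 0 of 62 Tmp cells, was used in them is not stated.

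Many transcripts of the unsorted cells did not lie between the sorted subsets. Of 83 genes found in at least 1 cell of the 3 populations, 48 were found in a larger share of unsorted cells than in either subset, 5 in a smaller share and 30 lay between the subsets or equalled at least 1 of them, R18s, Actb and Gapdh among these at 100% in all 3. Psmb7 (29.9% against 6.45% in Tmp and 10.1% in Tsle), Cd8a (55.2% against 33.9 and 37.1%), Stat4 (28.4% against 20.97 and 14.6%) and Thy1 (50.0% against 40.3 and 39.3%) were among the 48. In cells with Thy1 its median value was 10.9 in unsorted, 13.9 in Tmp and 13.8 in Tsle cells. With a limit of 12 it was found in 14.9% of unsorted cells. Shares at that limit are not given for the subsets, so the place of Thy1 may depend on the limit. None of the 94 genes lay at least 20 points above or below both subsets. The median number of assays above 0 moved with this, at 17 in unsorted, 14 in Tmp and 13 in Tsle cells, and its part in these shares was not tested.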

How the data were processed

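Single CD8+ T cells were sorted into a reverse transcription and preamplification mix, given 18 cycles of preamplification with the pool of TaqMan assays, then diluted 5-fold and run on dynamic arrays, per the labels' protocols. The authors deposited a table of 95 assay rows (Il2 in 2) and 1449 cells, not normalized, whose values are on a log2 scale of PCR cycles. The labels call them Ct, but they grow with RNA and were taken to be 40 minus Ct (the 40 is inferred, not stated). No filter on cells is stated in the labels. By accession, 93 rows were matched to the RefSeq table of GRCm38.p6 for names.

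A value above 0 was taken as detection. Shares have exact 95% intervals, and a share of 0 has the limit that 3 cells would give. Named were the 15 genes found most often, the 12 largest differences in each direction, the 10 most extreme pairs in each direction and members of the gene lists, besides a few cells chosen after their values were seen. Members and lists were chosen with earlier results of these data known. Some items are not reported here by name, though they are counted. Medians were compared where both sets had at least 10 cells with the transcript. The design was written for Ct and kept with the reading above.

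The alternatives were other size rules, a detection limit of 12, a minimum of 10 assays, the earlier or later columns, cells of few or many assays, mean levels, other ranges for pairs and centring on Actb and Gapdh. The script that counts genes was checked on simulated data. Python 3.11.15, numpy 2.4.6, scipy 1.17.1, pandas 2.3.3 and matplotlib 3.10.9 were used. With 41 and 93 cells, the intervals are wide.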

Additional observations from a re-analysis of the deposited data

Results flagged for a closer look

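Il7r went opposite ways with Tcf7 in the unsorted and the Tmp cells of day 7. In unsorted cells it was found 26.1 points more often in Tcf7-positive cells (39.0 against 12.9%), and in Tmp cells the difference was -20.1 points (7.69 against 27.8%, from 2 of 26 and 10 of 36 cells). Stat4 (-9.62 points), Thy1 (-16.5), Klrc1 (-18.6) and Foxo1 (-9.62) were also lower with Tcf7 in Tmp cells, though higher with it in unsorted cells. Eomes, Nfatc1, Rela and Foxp1 were higher with Tcf7 in both. The median number of other assays above 0 was 18 with and 16 without Tcf7 in unsorted cells. In Tmp cells it was 12.5 and 14.5, and its part was not tested. Each population is 1 sample, and the difference between the populations was not tested.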

How the results depend on the processing

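No paired analysis was possible because each population is 1 sample and the labels give no replicate numbers. Il7r, Eomes, Cxcr3, Stat4, Klrg1 and Zeb2 kept the sign of their difference between Tcf7-positive and Tcf7-negative cells in all 13 settings, the main one included. They were picked for large differences over the same cells, so keeping the sign within parts of those cells partly follows from that choice. The ranges were 18.7 to 32.4 points for Il7r, 13.8 to 34.4 for Eomes, 4.03 to 29.2 for Cxcr3, 6.79 to 39.3 for Stat4, -34.8 to -17.9 for Klrg1 and -30.9 to -10.1 for Zeb2. The number of genes at least 20 points higher, 4, was 7 at 15 points, 0 at 30 points, 7 in the later columns, 9 in the second stretch, 2 among cells of few assays and 2 by mean level of 1 cycle. The number lower, 2, was 0 at 30 points, 1 with a limit of 12 for the other assays, 1 with that limit for Tcf7, 0 with it for every assay, 1 among cells of few assays, 1 among cells of many and 0 by mean level. Pairs with a phi of at least 0.3, 1 in all, numbered 18 at 0.2, 0 at 0.4, 4 over genes in 5 to 95% of cells, 5 in the earlier columns, 16 in the later, 6 in the first stretch and 19 in the second. Pairs at or below -0.3, also 1, numbered 4 at 0.2, 0 at 0.4, 2 in the earlier columns, 2 in the first stretch, 4 in the second and 2 without the 7 cells of unusual values. Smaller sets of cells were used in the stretches. Where no cause is given here, the cause was not tested. The phi of Zeb2 and Cxcr3 ran from -0.61 to -0.26 and that of Foxo3 and Tcf12 from 0.27 to 0.41 over 14 settings each, the main one included. Of the differences in median value, 4 changed sign: Il7r (-0.30) and Cd28 (-0.60) when centred on Actb and Gapdh, and Cd28 (-0.012) in the earlier columns and in the first stretch. The stretches, the minimum R18s value of 26, the division by Tcf7 for pairs and the removal of the 7 cells were chosen after seeing the data. A limit of 12 left Lgals1 in 7.46% of cells, Thy1 in 14.9%, and Ifng and Serpinb9 in no cell, so shares of these assays depend on the limit.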
